A study of Arabidopsis thaliana with 2 samples.

Results

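The ribosomal stalk is the flexible arm of the large ribosomal subunit, and 10 *Arabidopsis thaliana* genes for its acidic P-proteins were followed here in plants that over-express the transcription factor NST1. They were chosen by locus name from the genes of the P0, P1, P2 and P3 families of the cytosolic ribosome that a probe with 1 annotated gene stood for. The choice did not take in every such gene, and 3 further stalk loci with a probe are given apart below. All 10 were measured, each by 1 probe, out of 9253 genes with such a probe. The family was picked because the log ratios of this same comparison were already known to be low for ribosomal genes, so the members' values are given as a description, and no p-value is given for them.

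Rosette leaf RNA came from 2 independent first-generation (T1) transformants, no. 36 and no. 44, aged 2 weeks. In both, the cauliflower mosaic virus 35S promoter, which is active in most plant cells, drove NST1, a NAC-family switch of secondary wall thickening. Per the labels, such plants lay down these thickenings ectopically in several organs above ground. The comparison was with a wild-type plant, whose age the labels do not state. Light lasted 16 h and dark 8 h, no treatment was given, and both transformants and wild type shared these conditions. Each transformant was hybridised in Cy5 on 1 array against wild-type RNA in Cy3, which gives 1 group of 2 plants. Wild type counts as 1 control sample, since the labels name no second one.

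Each value is the log ratio that the authors deposited for a probe and array, taken as log10 because the values stop at -2 and 2. Below 0 means likely lower in the over-expressor, from the dyes and titles, and NST1 itself was not analysed here. Neither the labels nor the file state the base, the centring or the direction, so every fold holds only if the base is 10. As 0 arrays had the dyes swapped, a dye effect and the genotype cannot be told apart. The number of arrays limits the precision, and p-values hold the spread between these 2 plants but not that of wild type. In whole leaves, fewer cells of a type and less RNA per cell cannot be told apart either. Over the 9335 probes with 1 gene, the median was 0.002 in plant 36 and 0 in plant 44.

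P0 sits on the rRNA of the large subunit next to the protein uL11 and carries dimers of the small proteins P1 and P2. Plants have a further small stalk protein, P3, which belongs to the same kind as P1 and P2. P0 and the small proteins end in a similar acidic tail. It meets the translation GTPases, some elongation factors among them, and helps them work on the ribosome. The assignment of each locus to a family is general knowledge of the *Arabidopsis* gene set, since the tables used here give these loci no family name.

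Across the 10 members the median log10 ratio was -0.2755 in plant 36 and -0.235 in plant 44. The median of the members' means was -0.271, or 1.87-fold lower in the over-expressors than in wild type. On both arrays 9 of the 10 lay below 0, against 41.0% of all probes with 1 gene, and 0 lay above 0 on both, against 42.2%. As a count that the choice of the family already bears on, and not as a test of the members, 8 of the 10 were beyond the adjusted p threshold of 0.05 in the lower direction in limma's fit over all probes. Of all probes with 1 gene, 12.4% were. In the higher direction 0 members were, against 9.99%. A 2-fold or greater reduction on both arrays was seen in 2 members, against 2.44% of probes with 1 gene. Because the choice of the family used this contrast, nothing is read from these counts.

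**Figure D1:**
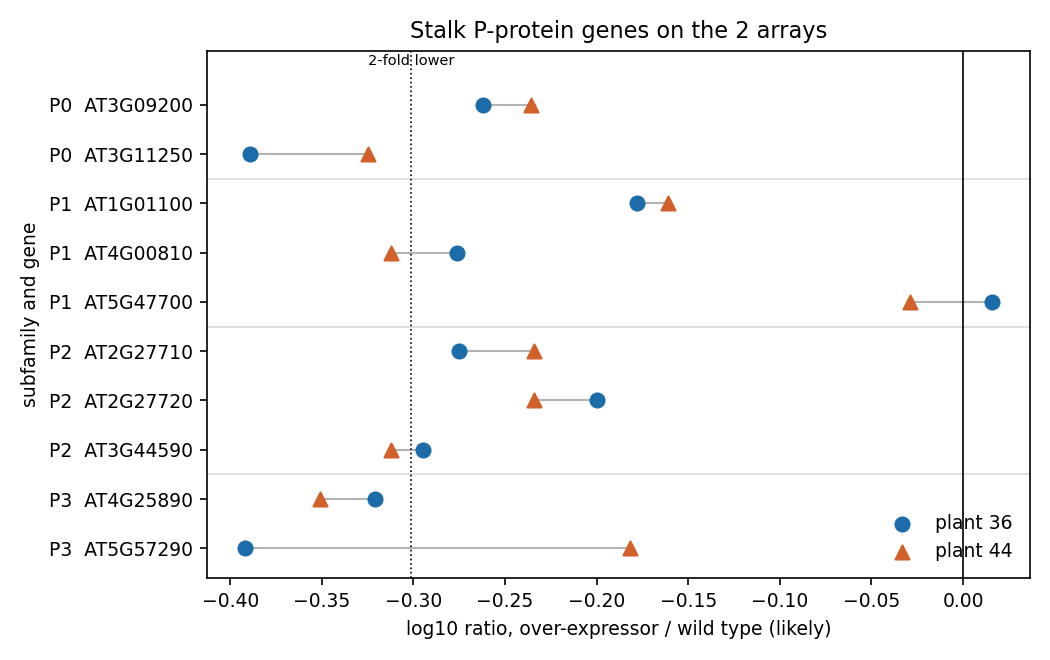
Deposited log10 ratio (horizontal axis, likely over-expressor over wild type) of each stalk P-protein gene (rows, grouped by family) in plant 36 (circles) and plant 44 (triangles), joined by a line, with the dotted line at 2-fold lower if the base is 10. AT5G47700 lies next to 0 at 0.016 and -0.029, and AT5G57290 has the widest gap, from -0.392 to -0.182.

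Both P0 genes among the members, which encode the scaffold of the stalk, had low values. AT3G11250 had log10 ratios of -0.389 in plant 36 and -0.325 in plant 44, a mean of -0.357 ± 0.045 (SD, n = 2 plants), or 2.28-fold lower. It was the lowest member by its mean, and 1.8% of probes with 1 gene had a lower one. AT3G09200 had -0.262 in plant 36 and -0.236 in plant 44, with a mean of -0.249 ± 0.018 (SD, n = 2 plants), or 1.77-fold lower. AT3G11250 lay below AT3G09200 by a log10 difference of -0.127 in plant 36 and -0.089 in plant 44. The values of these P0 members did not overlap between the genes on these arrays.

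The 3 P1 genes, for small acidic proteins that pair with P2, spread the most among the members' families. AT4G00810 had log10 ratios of -0.276 in plant 36 and -0.312 in plant 44, a mean of -0.294 ± 0.025 (SD, n = 2 plants), or 1.97-fold lower. AT1G01100 had -0.178 in plant 36 and -0.161 in plant 44, with a mean of -0.170 ± 0.012 (SD, n = 2 plants), or 1.48-fold lower. AT5G47700 had 0.016 in plant 36 and -0.029 in plant 44, a mean of -0.0065 ± 0.032 (SD, n = 2 plants). It was the one member whose values lay on both sides of 0, and 46.4% of probes with 1 gene had a lower mean.

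Set against the mean of the other P1 genes, AT5G47700 was higher by 0.243 in plant 36 and by 0.2075 in plant 44. The SD of these 2 differences was 0.025, and with 2 plants and a gene singled out for its value no test was made. Without AT5G47700, the other 9 members ranged in log10 ratio from -0.392 to -0.178 in plant 36 and from -0.351 to -0.161 in plant 44, with a median of their means of -0.287. The P1 genes are close copies of each other, and so are genes within the other stalk families. The probe sequences were not used here, so how far a probe also binds a copy's transcript was not tested.

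The 3 P2 genes among the members, whose products dimerise with P1, lay close together. AT3G44590 had log10 ratios of -0.295 in plant 36 and -0.312 in plant 44, with a mean of -0.304 ± 0.012 (SD, n = 2 plants), or 2.01-fold lower. AT2G27710 had -0.275 in plant 36 and -0.234 in plant 44, a mean of -0.255 ± 0.029 (SD, n = 2 plants), or 1.8-fold lower. AT2G27720 had -0.2 in plant 36 and -0.234 in plant 44, a mean of -0.217 ± 0.024 (SD, n = 2 plants), or 1.65-fold lower. The SD of the 3 means was 0.043, against 0.144 among the P1 genes. This closeness holds for the chosen members only. The measured P2-type loci outside them had means of -0.21 (AT3G28500) and -0.0015 (AT5G40040). AT2G27710 and AT2G27720 are next to each other in the TAIR10.1 gene order. Their log10 ratios differed by -0.075 in plant 36 and by 0 in plant 44 (AT2G27710 minus AT2G27720), where both had -0.234.

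Both genes of P3, the stalk protein particular to plants, had low values on average, but the arrays disagreed on one of them. AT4G25890 had log10 ratios of -0.321 in plant 36 and -0.351 in plant 44, with a mean of -0.336 ± 0.021 (SD, n = 2 plants), or 2.17-fold lower. It and AT3G11250 were the members beyond 2-fold on both arrays. AT5G57290 had -0.392 in plant 36 and -0.182 in plant 44, a mean of -0.287 ± 0.148 (SD, n = 2 plants), or 1.94-fold lower. In plant 36 it was the lowest of the 10 members, and in plant 44 only AT1G01100 and AT5G47700 were higher.

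By mean log10 ratio the members thus stood, lowest first, in the order AT3G11250, AT4G25890, AT3G44590, AT4G00810, AT5G57290, AT2G27710, AT3G09200, AT2G27720, AT1G01100 and AT5G47700. Of the 9 neighbouring pairs in this order, 5 had ranges over the 2 plants that overlapped. The 4 pairs without overlap were AT4G25890 and AT3G44590, AT3G09200 and AT2G27720, AT2G27720 and AT1G01100, and AT1G01100 and AT5G47700. The wide range of AT5G57290 overlapped those of 7 other members. By family, the ranges of P0, P1, P2 and P3 all overlapped one another.

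**Figure D2:**
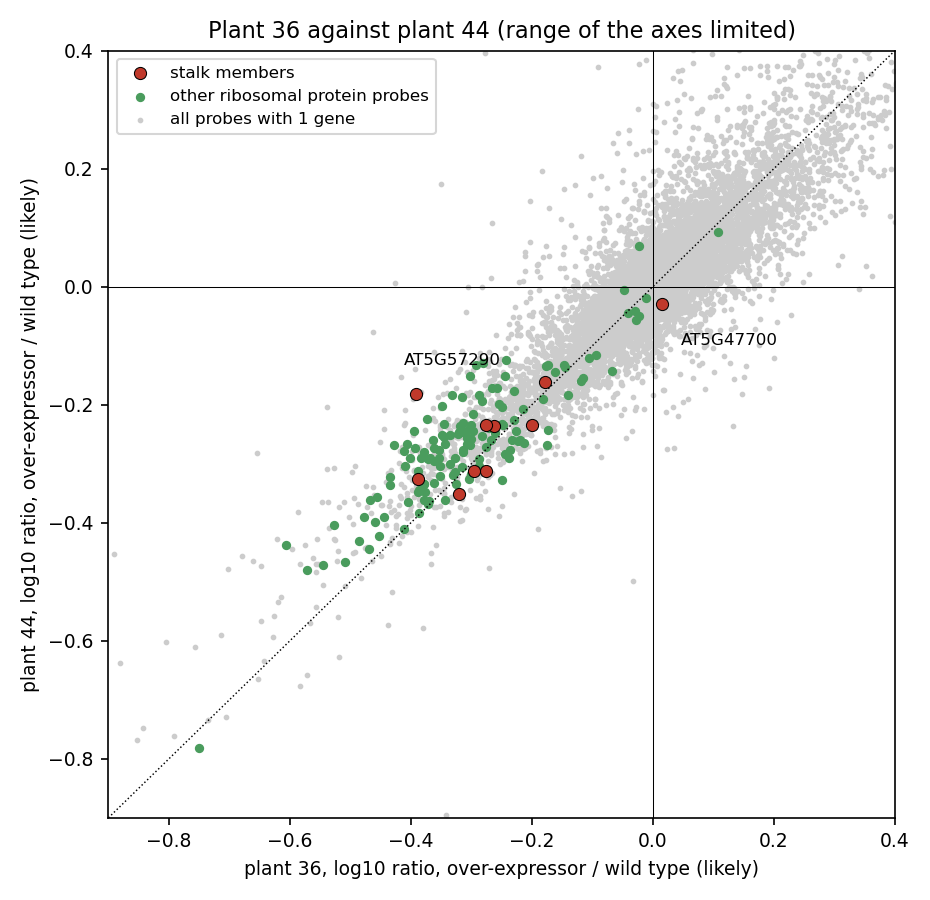
Log10 ratio in plant 36 (horizontal axis) against plant 44 (vertical axis) for the 10 stalk members (red), 135 probes of other cytosolic ribosomal proteins (green) and all probes with 1 gene (grey), with the dotted line at equal values and both axes limited to -0.9 to 0.4. AT5G47700 lies near 0, where some of the other ribosomal probes also lie. AT5G57290 lies above the line, with a gap between the plants of 0.21, against at most 0.17 among the other ribosomal probes.

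Between the plants, 5 members were lower in plant 36 and 5 in plant 44, with a median difference in log10 ratio of 0 (plant 44 minus plant 36). The difference was 0.21 for AT5G57290, and its size was between 0.017 and 0.064 for the other 9 members. Over the probes with 1 gene the median size was 0.036, and 2.67% had a larger one than AT5G57290. Among 135 probes of other cytosolic ribosomal proteins, 102 were lower in plant 36 and 32 in plant 44, with a median difference of 0.043. The largest size of difference among these 135 probes was 0.17. Each plant had 1 array, so no difference between them was tested, nor was that between the members and the other ribosomal probes.

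**Figure D3:**
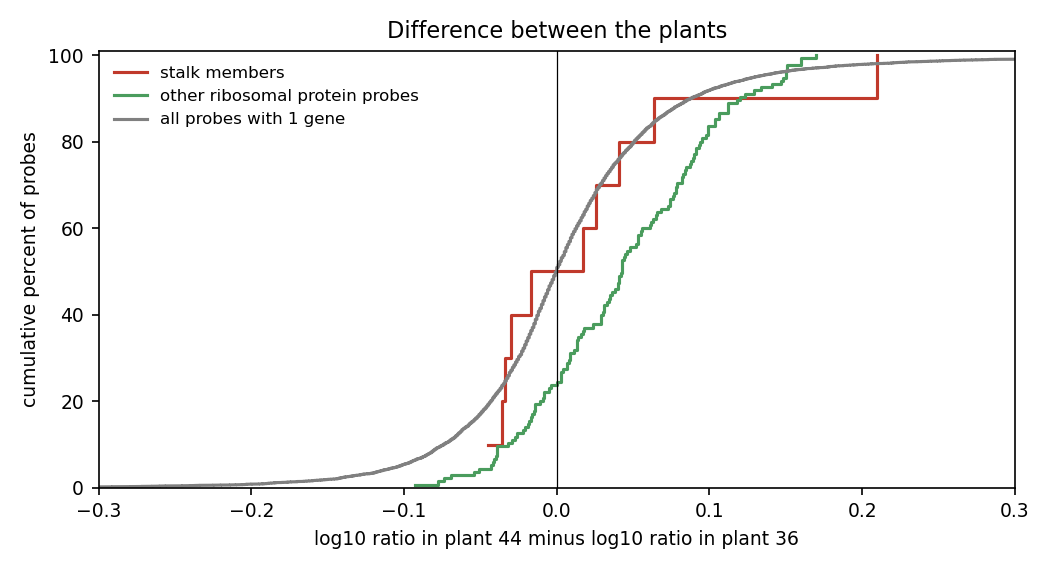
Cumulative percent of probes (vertical axis) by the log10 ratio in plant 44 minus that in plant 36 (horizontal axis, limited to -0.3 to 0.3) for the 10 stalk members, the 135 other ribosomal probes and all probes with 1 gene. The members cross 0 at 5 of 10 and end with AT5G57290 at 0.21, while the other ribosomal probes have a median of 0.043.

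Of 4 further stalk loci outside the chosen 10, 3 had a probe. The P0 gene AT2G40010 had log10 ratios of -0.371 in plant 36 and -0.322 in plant 44, with a mean of -0.347 ± 0.035 (SD, n = 2 plants). It fell 2.22-fold (limma adjusted p = 0.0286), so that all 3 P0 genes lay below -0.2 on both arrays. As ribosomal genes were already known to be low in this comparison, that p-value is no independent evidence. The P2-type gene AT3G28500 had -0.426 in plant 36 and 0.006 in plant 44 and did not pass (limma adjusted p = 0.352). Only 0.482% of probes with 1 gene had a larger gap between the plants. The P2-type gene AT5G40040 had 0.021 in plant 36 and -0.024 in plant 44 (limma adjusted p = 0.97), values much like those of AT5G47700.

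The stalk stands on a base of rRNA and uL11, the protein that cytosolic nomenclature also calls L12. All 3 uL11 genes were measured and all 3 fell, where 12.4% of probes with 1 gene fell. Ribosomal genes were already known to be low in this comparison, so this count and the p-values below are a description only. AT5G60670 had log10 ratios of -0.52 in plant 36 and -0.447 in plant 44, or 3.04-fold lower on average (limma adjusted p = 0.0279). AT2G37190 had -0.448 in plant 36 and -0.37 in plant 44, or 2.56-fold lower (limma adjusted p = 0.0307). AT3G53430 had -0.311 in plant 36 and -0.215 in plant 44, or 1.83-fold lower (limma adjusted p = 0.0486). That call is lost, with adjusted p = 0.0514 in limma, when 462 unnamed probes below -1.2 are left out of the fit. The first pair of genes lay below the median of the P-protein members on both arrays, but this difference was not tested.

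The elongation factors listed are GTPases, whose work the stalk tail serves, and subunits of the exchange factor eEF1B. This list was drawn up with earlier results of these data known. Its counts and p-values, here and for eEF1A below, are therefore a description only. The listed genes of the GTPase eEF2, AT1G56070 and AT3G12915, had no probe with 1 gene. Of 12 listed genes, 9 had a probe, of which 4 fell, 0 rose and 5 did not pass, where 12.4% of probes with 1 gene fell and 9.99% rose. All 9 lay below 0 on both arrays, against 41.0% of probes with 1 gene. Their median log10 ratio was -0.172, or 1.48-fold lower. Among genes of the exchange factor eEF1B, AT5G12110 of the beta type had -0.269 in plant 36 and -0.319 in plant 44 (limma adjusted p = 0.0311). AT1G57720 of the gamma type had -0.323 in plant 36 and -0.226 in plant 44 (limma adjusted p = 0.047). AT5G19510, also beta, had -0.194 in plant 36 and -0.149 in plant 44 (limma adjusted p = 0.0435). These 3 genes fell, while AT1G09640 (gamma), with a mean of -0.142 ± 0.091 (SD, n = 2 plants), and AT2G18110 (delta), with -0.054 ± 0.0071 (SD, n = 2 plants), did not pass.

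Of the eEF1A genes, whose products bring aminoacyl-tRNA to the ribosome, AT1G07930 fell, with log10 ratios of -0.191 in plant 36 and -0.156 in plant 44 (limma adjusted p = 0.0388). AT5G60390 had -0.226 in plant 36 and -0.151 in plant 44 and did not pass (limma adjusted p = 0.0558), though it did after centring each array on its median (limma adjusted p = 0.0372). AT1G07940 had a mean of -0.077 and AT1G07920 one of -0.047, and neither passed. The eEF1A genes are near-identical copies, so their values may not be separate measurements.

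Factors that build or use the stalk site were sparsely covered. Their lists too were drawn up with earlier results known, so the counts and p-values are a description only. AT1G25260, the counterpart of Mrt4, which in yeast holds the place of P0 on the immature large subunit, fell to -0.33 in plant 36 and -0.308 in plant 44, or 2.08-fold lower (limma adjusted p = 0.0262). AT1G43860, related to the maturation factor SBDS, had -0.084 in plant 36 and -0.054 in plant 44, and AT3G22980, related to the GTPase EFL1, had -0.061 in plant 36 and 0.019 in plant 44. Neither passed, so that 1 of 3 measured maturation genes fell, against 12.4% of probes with 1 gene. The release factor gene for eRF3, AT1G18070, had -0.185 in plant 36 and -0.096 in plant 44 (limma adjusted p = 0.0936) and was the single measured gene of 6 for termination and recycling. Casein kinase 2 phosphorylates stalk tails in several species, and 1 of its 8 listed genes was measured. That gene, AT2G23070 for a catalytic subunit, had -0.09 in plant 36 and -0.027 in plant 44 (limma adjusted p = 0.204). Whether this subunit meets the cytosolic stalk was not examined. GCN2, a kinase that the stalk can activate, and the plastid L10 and L12 genes had no probe with 1 gene.

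**Figure D4:**
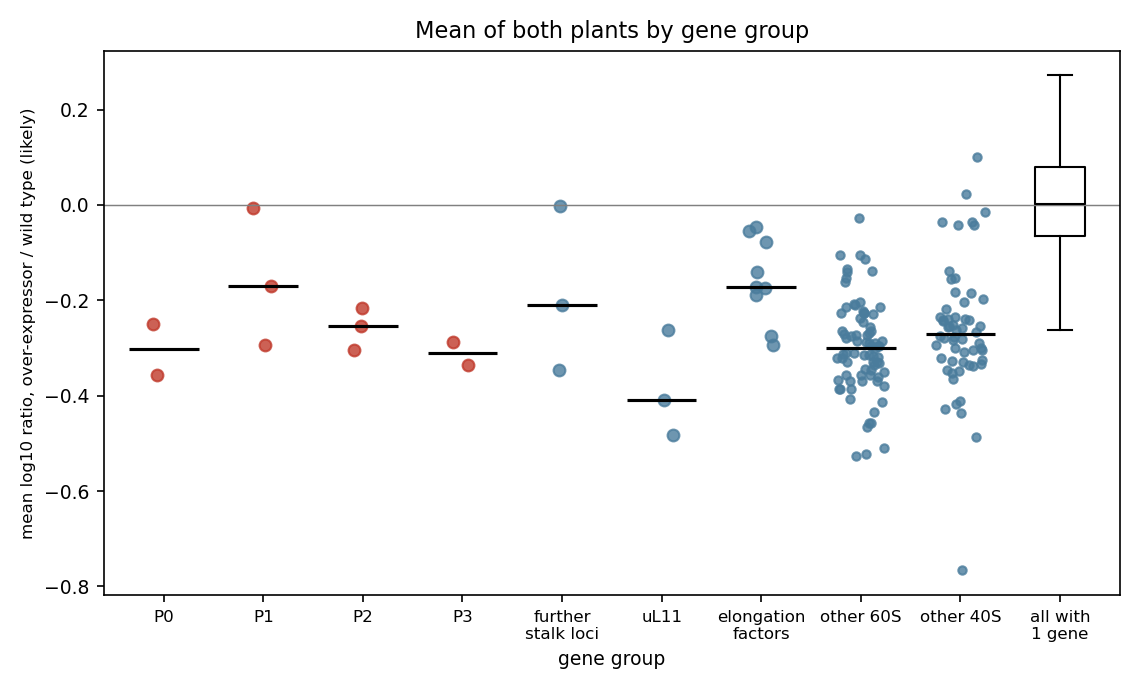
Mean log10 ratio of both plants (vertical axis, likely over-expressor over wild type) for each probe (points) by gene group, with the group median as a bar, the members' families in red, and a box with quartiles and whiskers at the 5 and 95 percentiles for all probes with 1 gene. The medians run from -0.409 for uL11 to -0.17 for P1 and -0.172 for the elongation factors, beside 0.001 for all probes with 1 gene.

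The members' level of change was next set beside the rest of the cytosolic ribosome. Of 76 other genes of the 60S subunit (77 probes), the median log10 ratio was -0.3, with 64 probes that fell, 0 that rose and 13 that did not pass. Of 57 genes of the 40S subunit (58 probes), it was -0.271, with 41 that fell, 0 that rose and 17 that did not pass. Of all probes with 1 gene, 12.4% fell and 9.99% rose. The low values of ribosomal genes were known beforehand, so nothing is read from these counts. Taken as 1 list of 135 probes, the median was -0.289, and the SD of the means was 0.116, against 0.101 among the 10 stalk members. Lower means than that of AT3G11250 were held by 25 of these probes, and lower means than that of AT5G47700 by 133. No difference between these lists was tested, and none of the values is called particular to the stalk.

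Markers of leaf tissue could not be checked for presence, because a ratio carries no level. Of 4 leaf photosynthesis markers, LHCB4.3 fell (limma adjusted p = 0.0286), with log10 ratios of -0.236 in plant 36 and -0.227 in plant 44. RCA, LHCB4.1 and PSBW each held -0.22 in plant 36 and -0.082 in plant 44, a pair that 73 probes shared, whereas each stalk member's pair of values was its own. Both vessel markers rose, SCPL48 (AT3G45010) to 0.381 in plant 36 and 0.515 in plant 44 (limma adjusted p = 0.0388) and PASPA3 (AT4G04460) to 0.397 in plant 36 and 0.497 in plant 44 (limma adjusted p = 0.0326). The phloem marker SWEET11 rose to 0.325 in plant 36 and 0.324 in plant 44 (limma adjusted p = 0.0233). TRY of trichomes, at a mean of -0.024, and the root markers PYK10, at -0.0775, and EXPA18, at -0.0685, did not pass. Whether these ratios reflect shifts among cell types, and whether such shifts have a part in the stalk values, was not tested. The markers were chosen with earlier results of these data known, so their calls are no independent check.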

How the data were processed

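The authors' deposited values were 1 log10 ratio per probe and array (base 10 read from their limits of -2 and 2), for 22575 probes on 2 arrays. Per the labels, only dyes and RNA are known of how they were made. Probes were named through the platform annotation and the TAIR10.1 RefSeq gene table, by gene identifier. This gave 1 gene for 9335 probes (9317 of them in RefSeq), several for 40 and no name for 13200.

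The mean ratio of every probe was tested two-sided against 0 in limma 3.58.1 (R 4.3.3), by a model holding just the intercept, with moderated variances (prior degrees of freedom 1.37, residual 1). Benjamini-Hochberg adjustment ran over all 22575 probes at a threshold of 0.05. The fit was also run on simulated data, whose spread was not matched to these arrays, so nothing is read from that run. The ratio against 0 leaves out the spread of wild type. No filter was applied, values were not centred again, and errors are the SD of the 2 plants. "Fell" and "rose" are used of probes past the threshold, with 2-fold being 0.301 on the log10 scale.

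The members, the gene lists and the alternatives were chosen with earlier results of these data known. The other ribosomal loci were listed from general knowledge. Genes were named if they were members, if they belonged to a small list and were measured, or if they were among the 3 genes with the nearest pair of values. LHCB4.3 and the other cell type markers were named from a list that was likewise chosen with earlier results known. Sequences of proteins and promoters were not analysed here.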

Additional observations from a re-analysis of the deposited data

How the results depend on the processing

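Centring each array, centring with scaling, a robust prior, a fit on probes with 1 gene, and leaving out unnamed probes below -1.2 or probes at 0 each gave 8 stalk members past the limma threshold, all lower. At an adjusted p of 0.01 limma called 0 members, with 9 at an unadjusted p under 0.05, and 0 of all probes, with 5086 lower and 4632 higher at an unadjusted p under 0.05. The ordinary test with no prior also called 0 members, with 6 at an unadjusted p under 0.05, and 0 of all probes, with 2606 lower and 1723 higher. Both settings likewise gave 0 for uL11 (3 in the report), elongation factors (4), 60S maturation (1), further stalk loci (1) and other ribosomal probes (105). At an unadjusted p under 0.05 these lists had 3, 7, 2, 1 and 127 lower probes in limma and 1, 1, 1, 1 and 57 in the ordinary test. Over all probes 2795 fell and 2001 rose. The fit on probes with 1 gene alone, which tests 9335 probes, called 1620 lower and 1609 higher, against 1156 and 933 of the same probes in the fit over all. The shares of probes with 1 gene set beside the members' counts thus moved to 17.4% lower (from 12.4%) and 17.2% higher (from 9.99%), and the higher share was 15.3% with centring, 16.3% with scaling and 15.2% without probes at 0. Over all probes, those that rose numbered 3021 with centring, 3187 with scaling and 3012 without probes at 0. What caused these shifts was not tested. The members' median log10 ratio was -0.2755 to -0.235 on single arrays. At 2-fold lower, 3 to 4 members lay on single arrays, 2 on both, 8 at 1.5-fold on both and 0 if the values are log2. Of probes with 1 gene, 2.44% lay at 2-fold lower on both arrays. The share was not computed at 1.5-fold or on single arrays, so nothing is read from those counts.

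No paired analysis was possible because there is 1 group. Calls without 1 array were not run, as that leaves no residual degrees of freedom. What signal over background limits is unknown, because only ratios were used.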

Other observations

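The 10 members lie on all 5 nuclear chromosomes, and 18 genes that are not members flank them in the TAIR10.1 order of protein-coding genes. Of these, 8 had a probe. Their mean log10 ratios ran from -0.0995 to 0.3025, with a median of -0.009, and 4 lay below 0 and 3 above 0 on both arrays. AT4G25900, beside the P3 gene AT4G25890, had 0.331 in plant 36 and 0.274 in plant 44. AT1G01110 (IQD18), beside the P1 gene AT1G01100, had 0.13 in plant 36 and 0.157 in plant 44. The member next to 0, AT5G47700, was flanked by AT5G47690 at -0.02 in plant 36 and -0.006 in plant 44, and by AT5G47710 at -0.102 in plant 36 and -0.097 in plant 44.

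Among 9080 genes outside the lists, those whose pair of log10 ratios lay nearest to the members' pair of medians were AT1G17850 (-0.273 in plant 36 and -0.236 in plant 44), AT3G27120 (-0.278 in plant 36 and -0.233 in plant 44) and AT2G34510 (-0.273 in plant 36 and -0.238 in plant 44). Likeness was the Euclidean distance over the 2 arrays, and 181 genes lay within 0.05, so that 2 values place many genes alike.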
